A study of Mus musculus with 6 samples.

Results

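The genes described here are 10 markers of the intermediate progenitors and immature neurons of adult neurogenesis: Dcx, Sox11, Sox4, Igfbpl1, Eomes, Neurod1, Tubb3, Draxin, Dpysl3 and Ccnd2. They were chosen by name, matched to gene identifiers by symbol, and make up 10 of the 55401 genes counted. Bulk RNA-seq was performed on the dorsal hippocampus of WT mice from the Ts65Dn colony, at 4 months of age. An antisense oligonucleotide (ASO) was injected bilaterally into the dorsal dentate gyrus at 50 μg per hemisphere and the tissue was taken 3 days later. One group of 3 samples received Control-ASO, a scrambled sequence, and the other group of 3 received Snhg11-ASO, a gapmer that recruits RNase H to the long noncoding RNA Snhg11. Injection and surgery were thus shared by all samples, no uninjected tissue was used here, and the dissected piece held the whole dorsal hippocampus and not only the dentate gyrus. The comparison addresses whether lowering Snhg11 goes with another level of the transcripts of adult neurogenesis.

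In the adult dentate gyrus, radial glia-like stem cells of the subgranular zone divide to give intermediate progenitors, which become neuroblasts and then granule neurons. Eomes (Tbr2) marks the intermediate progenitors, the bHLH factor Neurod1 drives neuronal differentiation, and Sox4 and Sox11 are SoxC transcription factors that turn on genes of young neurons, Dcx and Tubb3 among them. These cells are few in the adult hippocampus, and several of the genes are also transcribed elsewhere: Tubb3 is a tubulin of mature neurons too, and Ccnd2 and Sox4 are found in other dividing or glial cells. In bulk tissue, fewer cells of a type and less RNA per cell cannot be told apart.

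Between 28951250 and 34293344 read pairs fell on genes in each Control-ASO sample, and between 38556524 and 43997537 in each Snhg11-ASO sample. Raw counts were thus drawn from deeper libraries in the Snhg11-ASO group. Levels are given as CPM, counts scaled to a common library size after correction between libraries. Snhg11 had 550.8, 435.8 and 208.6 CPM in Control-ASO replicates 1, 2 and 3 and 139, 65.4 and 69.4 CPM in Snhg11-ASO replicates 1, 2 and 3, so the groups did not overlap. Its log2 fold change was -2.13 (SE 0.43), which did not pass the threshold of 0.05 in edgeR's quasi-likelihood test (adjusted p = 0.395) and passed it in DESeq2 (adjusted p = 6.2e-05). Snhg11-ASO replicate 1 stood apart: its Spearman correlation with the other samples across genes was 0.955 to 0.959, against 0.979 to 0.991 among the others, and the values that rest on it are also given without it. Choroid plexus genes (Ttr, Folr1, Kl and others) ranged from 199 to 3028 summed CPM between samples of Control-ASO and from 243 to 2143 between those of Snhg11-ASO. The Y-linked Ddx3y was read at 62.5 to 94.7 CPM in the 6 samples, where Xist reached at most 0.184 CPM, as in male tissue.

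The 10 genes covered a wide range of levels. Per kilobase of exon, the Control-ASO mean was highest for Tubb3, at 76.3 ± 8.67 CPM (SD, n = 3), followed by Dpysl3 at 6.87 ± 0.701, Ccnd2 at 4.85 ± 1.03 and Neurod1 at 3.89 ± 0.460. Then came Sox11 at 3.10 ± 0.292, Sox4 at 2.80 ± 0.306 and Dcx at 1.92 ± 0.434. At the lower end, Igfbpl1 stood at 0.303 ± 0.145, Draxin at 0.127 ± 0.0503 and Eomes at 0.0392 ± 0.0371. The Control-ASO values overlapped between the neighbours Ccnd2 and Neurod1, Sox11 and Sox4, and Igfbpl1 and Draxin, so the order within those pairs is not set by these data. In the Snhg11-ASO means Sox4 stood next after Dpysl3, at 5.55 ± 3.92 CPM per kilobase, a place that came from replicate 1. Coverage of the set was thus uneven: Igfbpl1 and Draxin were low, and Eomes, the defining marker of intermediate progenitors, was close to absent. The levels do not show which cells made the RNA, since several of the better covered genes are also transcribed outside young neurons.

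**Figure D1:**
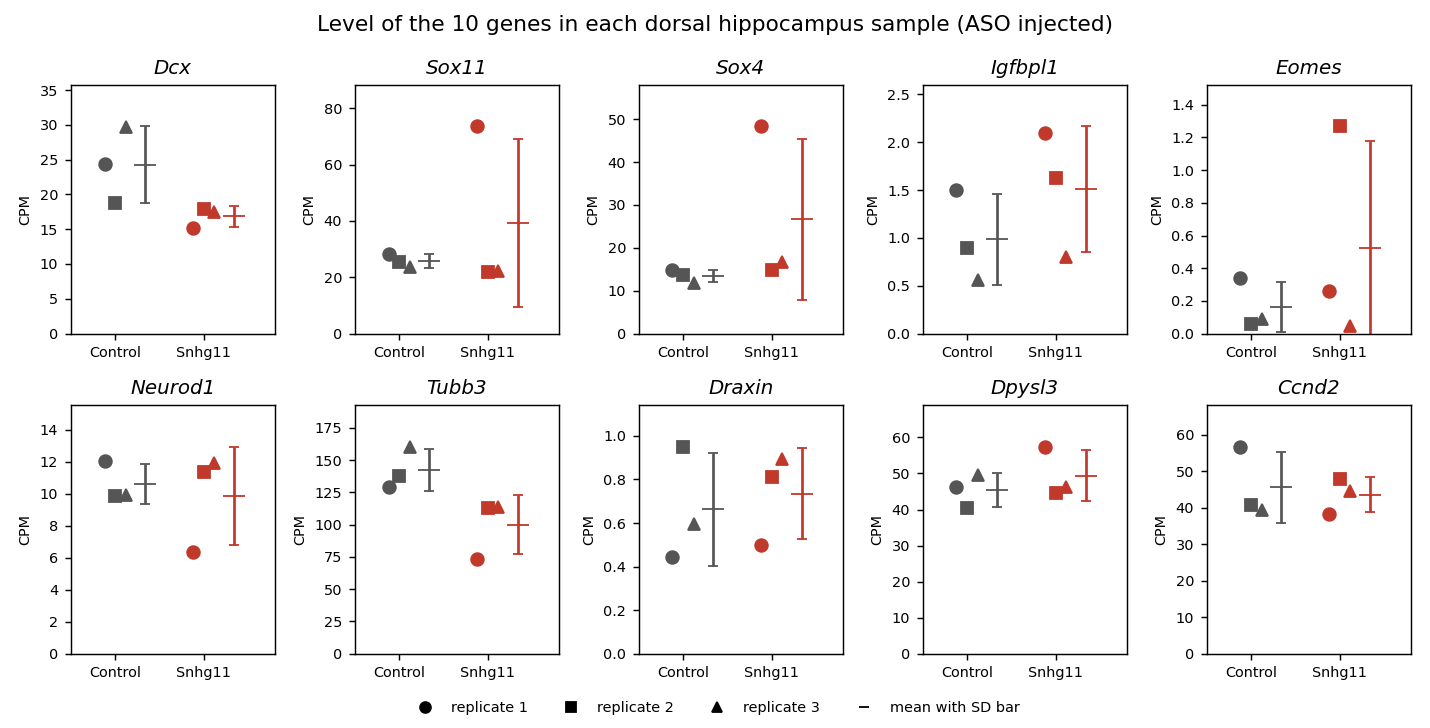
Level of each of the 10 genes in CPM (vertical axis, linear and starting at 0) in the Control-ASO (grey) and Snhg11-ASO (red) samples, with circles, squares and triangles for replicates 1, 2 and 3 and a bar for the mean ± SD of 3 samples. For Sox11 and Sox4 the circle of Snhg11-ASO replicate 1 sits far above the other 5 samples, for Dcx and Tubb3 all red points lie below all grey points, and the lower SD bar of Eomes is cut at 0.

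The cytoskeletal genes of young neurons come first. Dcx encodes doublecortin, a microtubule-associated protein of migrating neuroblasts, and Tubb3 encodes the neuronal class III β-tubulin. Both were lower in every Snhg11-ASO sample than in any Control-ASO sample, by about the same factor. The Dcx gene (ENSMUSG00000031285) lies on the minus strand of chromosome X from 143855842 to 143933311 (GRCm38). Dcx had 24.4, 18.7 and 29.7 CPM in Control-ASO replicates 1 to 3 and 15.1, 17.9 and 17.5 CPM in Snhg11-ASO replicates 1 to 3. The lowest Control-ASO value lay just above the highest Snhg11-ASO value, and the spread was larger among the Control-ASO samples (24.3 ± 5.50) than among the Snhg11-ASO samples (16.9 ± 1.51; SD, n = 3). The Snhg11-ASO mean was 69.5% of the Control-ASO mean. The log2 fold change was -0.53 (SE 0.18, 95% interval -0.96 to -0.09), with an unadjusted p = 0.0247 and an adjusted p = 0.561 over all genes in edgeR, so Dcx did not pass the test. The adjusted p ranged from 0.268, in DESeq2, to 0.979 over the alternatives. Without Snhg11-ASO replicate 1 the log2 fold change of Dcx was -0.45 (unadjusted p = 0.0507 in edgeR).

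Tubb3 (ENSMUSG00000062380, chromosome 8, plus strand, 123411424 to 123422015) had 129, 138 and 160.5 CPM with Control-ASO and 73.5, 112.6 and 113.3 CPM with Snhg11-ASO. The groups did not overlap, and Snhg11-ASO replicate 1 was the lowest of all. The log2 fold change was -0.51 (SE 0.18, 95% interval -0.95 to -0.08), with an unadjusted p = 0.0263 and an adjusted p = 0.562 in edgeR. The Snhg11-ASO mean was 70.0% of the Control-ASO mean, and 79.3% of it without replicate 1, when the log2 fold change was -0.33 (unadjusted p = 0.0191 in edgeR). For both Dcx and Tubb3 the two-sided exact permutation test over samples gave p = 0.1, the smallest value 3 against 3 samples allow. Dpysl3 (ENSMUSG00000024501), which encodes CRMP4, a collapsin response mediator protein of growing axons, gave no such separation. It had 46.3, 40.4 and 49.6 CPM against 57.5, 44.7 and 46.2 CPM, and the groups overlapped. Its log2 fold change was 0.12 with a 95% interval from -0.20 to 0.44, and it was 0.000562 without Snhg11-ASO replicate 1.

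The bases before the starts of Dcx and Tubb3 are shown because these genes shared a direction in all 3 samples and are known targets of SoxC factors. They are RefSeq bases of GRCm38.p6, 5′ to 3′ on the strand of the gene, with matches to the searched letters in capitals: SOX-type ACAAAG and ACAATG, E-box CAGCTG and CAGATG, and TATAAA, each on both strands.
Dcx (chrX:143933312-143933469): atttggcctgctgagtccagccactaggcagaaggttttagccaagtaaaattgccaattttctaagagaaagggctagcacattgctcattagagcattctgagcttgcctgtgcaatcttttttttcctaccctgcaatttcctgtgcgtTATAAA
Tubb3 (chr8:123411303-123411423): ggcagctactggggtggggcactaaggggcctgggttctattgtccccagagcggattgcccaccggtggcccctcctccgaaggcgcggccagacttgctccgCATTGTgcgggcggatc
The Tubb3 stretch held ACAATG on the opposite strand, written CATTGT, and the full Tubb3 window, 250 bases before to 50 after the RefSeq start, held it at positions -146 and -96 from that start. Of all 32851 windows of that length, 12.6% held ACAATG. The Dcx stretch held TATAAA, found in 13.6% of all windows, and the other RefSeq window of Dcx held ACAAAG at position -8, found in 18.7%. These matches describe letters in the window and not binding.

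For the SoxC factors Sox4 and Sox11, the Snhg11-ASO mean was set by 1 library. Sox4 (ENSMUSG00000076431) is a single exon on the minus strand of chromosome 13, from 28948919 to 28953713, and Sox11 (ENSMUSG00000063632) a single exon on the minus strand of chromosome 12, from 27334264 to 27342574. Sox4 had 14.8, 13.6 and 11.9 CPM with Control-ASO and 48.3, 14.9 and 16.7 CPM with Snhg11-ASO. Snhg11-ASO replicate 1 was 3.60 times the Control-ASO mean, against 1.11 and 1.24 times in replicates 2 and 3, so the groups did not overlap but replicate 2 lay only just above the highest Control-ASO sample. The counts behind these values were 435, 458 and 400 against 1842, 622 and 729, so the high value was not one of few reads. The log2 fold change was 0.99 (SE 0.45, 95% interval -0.07 to 2.05, unadjusted p = 0.0631 and adjusted p = 0.636 in edgeR), and 0.24 without replicate 1 (unadjusted p = 0.107).

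Sox11 had 28.4, 25.3 and 23.6 CPM with Control-ASO and 73.6, 21.9 and 22.3 CPM with Snhg11-ASO. Replicate 1 lay above and replicates 2 and 3 below every Control-ASO sample, at 2.86, 0.850 and 0.866 times the Control-ASO mean. The direction thus turned on that library: the log2 fold change was 0.61 (SE 0.47, adjusted p = 0.767) with all samples, 0.36 with the replicate number as a block, and -0.22 without replicate 1 (unadjusted p = 0.0711), all in edgeR. Sox12, the remaining SoxC gene, had a log2 fold change of -0.02 and did not share the high value. In the same library Dcx and Tubb3 were at their lowest levels of the 6 samples, so in Snhg11-ASO replicate 1 the SoxC genes and these neuronal genes stood at opposite ends. Markers of other cells stood out in that library too: 11 of the 15 reactive astrocyte genes and 5 of the 7 leukocyte genes tested were highest there. Of all genes, 33.3% were highest and 32.5% lowest there. Other lists went the other way: 7 of 12 microglia, 6 of 8 oligodendrocyte and 7 of 11 oligodendrocyte precursor genes were lowest in that library. The summed leukocyte level (Ptprc, Ccr2, Lyz2 and others) was 70.5 CPM in it, 50.5 and 46.6 CPM in Snhg11-ASO replicates 2 and 3, and 33.7 to 40.9 CPM with Control-ASO. Cd44, named after its values were seen, had 200.3 CPM in it against 33.9 and 43.4 CPM in the other two and 16.5 to 19.2 CPM with Control-ASO. The part of these cells in the SoxC levels was not tested.

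The bases before the starts of both SoxC genes are shown because these genes stood out together in 1 library; capitals are as above.
Sox4 (chr13:28953714-28953949): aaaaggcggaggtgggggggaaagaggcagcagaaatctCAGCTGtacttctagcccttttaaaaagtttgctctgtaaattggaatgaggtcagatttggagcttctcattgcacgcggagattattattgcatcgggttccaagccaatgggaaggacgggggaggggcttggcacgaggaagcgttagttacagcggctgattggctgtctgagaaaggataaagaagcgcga
Sox11 (chr12:27342719-27342968): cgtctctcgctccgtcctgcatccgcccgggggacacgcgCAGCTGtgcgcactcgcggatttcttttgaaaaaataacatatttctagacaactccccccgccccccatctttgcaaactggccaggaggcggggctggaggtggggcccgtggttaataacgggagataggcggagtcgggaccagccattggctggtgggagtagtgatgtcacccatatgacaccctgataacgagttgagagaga
Both held the E-box letters CAGCTG, at -211 in Sox4 and -210 in Sox11 from the RefSeq start, and 16.3% of all windows held them. Windows were at hand for 7 of the 10 genes: that of Draxin held ACAAAG at 2 places and CAGCTG at 1, and those of Neurod1 and Eomes held none of the letters searched.

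**Figure D2:**
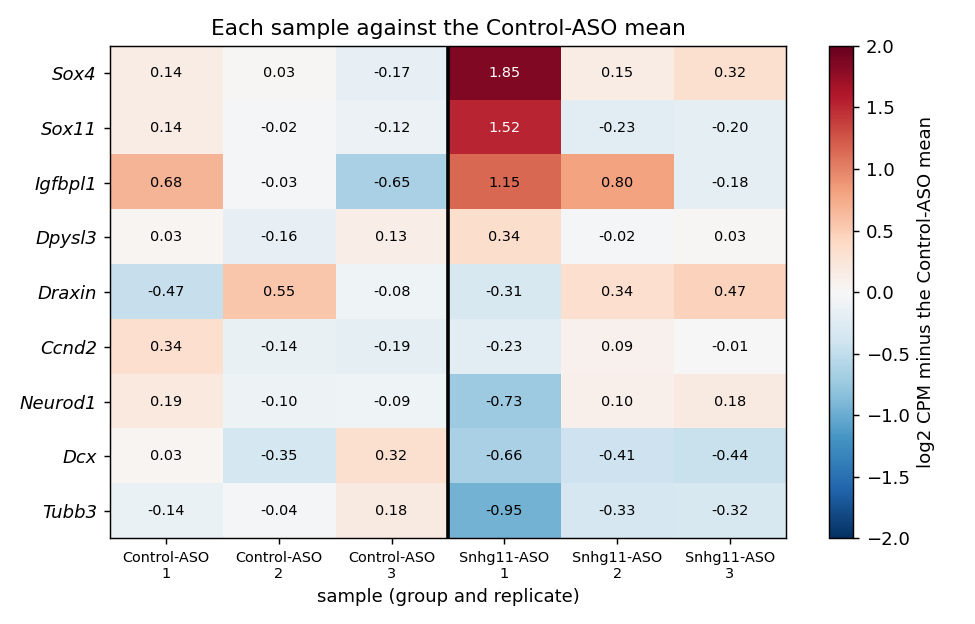
Log2 CPM of each gene in each sample minus its mean over the Control-ASO samples, for the 9 genes tested (rows) in the 6 samples (columns), red for higher and blue for lower. Snhg11-ASO replicate 1 holds the darkest cells in both directions, 1.85 for Sox4 and 1.52 for Sox11 against -0.95 for Tubb3 and -0.73 for Neurod1.

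The factors of the progenitor step gave no separation. Eomes (ENSMUSG00000032446, chromosome 9, plus strand, 118478212 to 118486132) was counted 10, 2 and 3 times with Control-ASO and 10, 53 and 2 times with Snhg11-ASO. The counts of Snhg11-ASO replicate 2 stood alone, the other 5 samples were at 10 or fewer, and Eomes was the only one of the 10 genes that did not pass the filter on low counts. A difference in Eomes could not be resolved at this depth: with no filter on low counts its log2 fold change was 1.70 (SE 1.0, adjusted p = 0.792 over 36214 genes in edgeR). Neurod1 (ENSMUSG00000034701, chromosome 2, minus strand, 79452521 to 79456751) had 12.1, 9.87 and 9.92 CPM with Control-ASO and 6.35, 11.3 and 12 CPM with Snhg11-ASO. Its groups overlapped, with replicate 1 lowest, and its log2 fold change of -0.10 (95% interval -0.70 to 0.50, adjusted p = 0.933 in edgeR) became 0.14 without that library. Neurod1 shares 201 exonic bases with Cerkl on the same strand, and pairs there were counted for neither gene.

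Ccnd2, which encodes the cyclin that adult-born hippocampal progenitors use to divide, stood at 56.8, 40.7 and 39.4 CPM with Control-ASO and at 38.3, 48.0 and 44.6 CPM with Snhg11-ASO. The gene (ENSMUSG00000000184) lies on the minus strand of chromosome 6, from 127125162 to 127152193. Its groups overlapped and its log2 fold change was -0.06, with a 95% interval from -0.46 to 0.33. The sign was not stable: it was 0.12 without Control-ASO replicate 1 and 0.02 without Snhg11-ASO replicate 1.

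The secreted proteins of the set were near the lower limit of what could be compared. Igfbpl1 (ENSMUSG00000035551, chromosome 4, minus strand, 45809468 to 45826923), an insulin-like growth factor binding protein-like gene of early neuroblasts, had 44, 30 and 19 counts with Control-ASO and 80, 68 and 35 with Snhg11-ASO. These are 1.50, 0.892 and 0.564 CPM against 2.10, 1.63 and 0.802 CPM, with overlapping groups. Its log2 fold change of 0.62 had a wide 95% interval, from -0.52 to 1.76 (adjusted p = 0.769 in edgeR), and it was 0.31 without Snhg11-ASO replicate 1. Leaving out Control-ASO replicate 1 gave 1.03 and leaving out Control-ASO replicate 3 gave 0.33. Igfbpl1 was higher with Snhg11-ASO in 3 of 3 same-numbered pairs. With the replicate number as a block its unadjusted p was 0.0679 and its adjusted p 0.609 in edgeR. No label pairs the samples and the pairing was read from these same data, so it adds no separate support. Draxin (ENSMUSG00000029005, chromosome 4, minus strand, 148098437 to 148130698), a repulsive axon guidance protein, had 0.442, 0.951 and 0.594 CPM against 0.498, 0.814 and 0.893 CPM. These groups overlapped as well, and the log2 fold change of 0.15 (95% interval -0.78 to 1.08) was -0.07 without Control-ASO replicate 1 and -0.02 without Snhg11-ASO replicate 3.

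Of the 9 genes tested, 0 passed an adjusted p of 0.05 in edgeR, where 0% of all 19969 genes tested did, and 0 in DESeq2, where 258 genes (1.29%) did. At an unadjusted p under 0.05, edgeR gave 2 of the 9, Dcx and Tubb3, both lower, against 8.11% of all genes, 4.43% lower and 3.68% higher. Tubb3 alone had such a p without Snhg11-ASO replicate 1, against 9.94% of all genes, and Dcx and Tubb3 had it with the replicate number as a block, against 8.59%. The groups did not overlap for 3 of the 9, Dcx and Tubb3 (lower) and Sox4 (higher), against 15.4% of all genes, 7.7% lower and 7.73% higher, so with 9 genes these counts were not far from the background. Without Snhg11-ASO replicate 1 Sox11 joined these genes on the lower side, and 28.3% of all genes did not overlap. With libraries scaled by upper-quartile factors, the groups did not overlap for 2 of the 9 genes. The median log2 fold change of the 9 was 0.12, against 0.01 over all genes, 0.02 without Snhg11-ASO replicate 1 and -0.02 without Snhg11-ASO replicate 3. In Snhg11-ASO replicate 1, 4 of the 9 genes had their highest and 4 their lowest value, while 33.3% and 32.5% of all genes did.

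**Figure D3:**
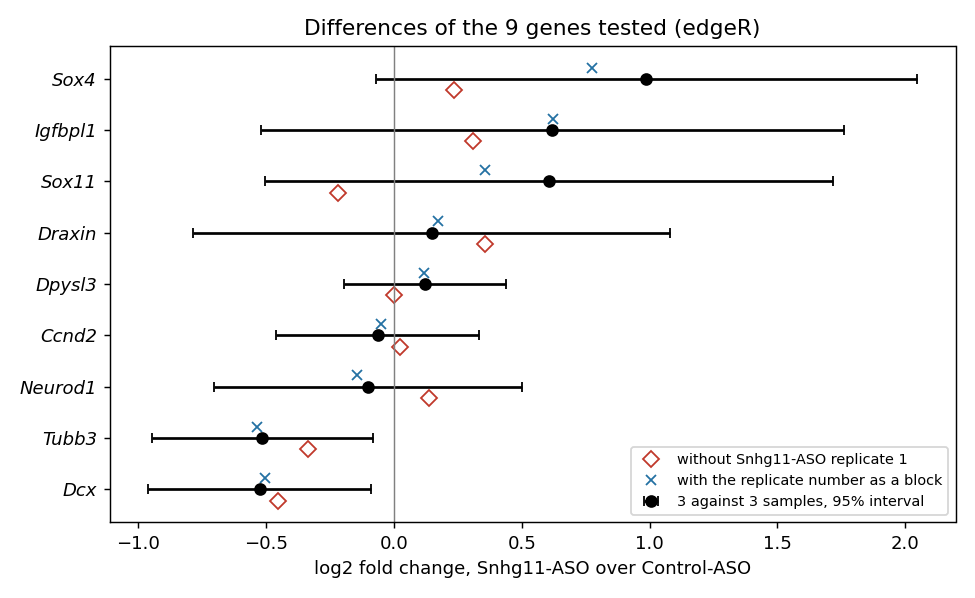
Log2 fold change (horizontal axis) of the 9 genes tested, Snhg11-ASO over Control-ASO, from edgeR with all 6 samples (black points with 95% intervals), with the replicate number as a block (blue crosses) and without Snhg11-ASO replicate 1 (red diamonds). The intervals of Dcx and Tubb3 lie below 0, and the red diamonds of Sox11, Neurod1 and Ccnd2 lie on the other side of 0 from the black points.

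The steps before and after these markers were described with further genes of the sequence, the 10 left out. In the list of neuroblasts and immature neurons, 21 of 30 genes were lower and 9 higher, with a median log2 fold change of -0.04 against 0.01 over all genes, of which 9653 were lower and 10316 higher. The median was -0.05, -0.21 and -0.13 without Snhg11-ASO replicates 1, 2 and 3, and -0.09, -0.06 and -0.10 without Control-ASO replicates 1, 2 and 3. Snhg11-ASO replicate 1 was the lowest of the 6 samples for 17 of the 30 genes and the highest for 6. Of all genes, 32.5% were lowest and 33.3% highest there. Prox1 is also in the list of mature granule cell markers. Of these 30, Elavl3 and Ncam1 reached an unadjusted p under 0.05 in edgeR, both lower, against 4.43% of all genes on that side. Elavl3, a neuronal RNA-binding protein, had 97.4, 98.7 and 81.5 CPM against 34.3, 58.9 and 46.4 CPM (log2 fold change -0.99, SE 0.20, adjusted p = 0.377 in edgeR). Ncam1, the neural cell adhesion molecule, had 297, 246 and 224 CPM against 159, 168 and 152 CPM (log2 fold change -0.68, SE 0.12, adjusted p = 0.308 in edgeR). Both kept no overlap between the groups and both passed the threshold in DESeq2, with adjusted p of 0.00225 for Elavl3 and 8.8e-04 for Ncam1. Like Tubb3, these are genes of mature neurons as well.

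In the list of radial glia-like stem cells, 10 of 17 genes were higher and 7 lower, with a median of 0.14 (0.26 without Snhg11-ASO replicate 1, -0.03 without replicate 2 and -0.05 without replicate 3), and 3 reached an unadjusted p under 0.05 in edgeR, all higher, against 3.68% of all genes on that side. Nes, the intermediate filament of neural stem cells, had 9.82, 15.3 and 7.45 CPM against 52.1, 24.5 and 35.1 CPM. Its groups lay well apart, with a log2 fold change of 1.77 (SE 0.35, adjusted p = 0.377 in edgeR and 2.1e-04 in DESeq2) and of 1.46 without replicate 1. Vim, another intermediate filament, had 47.9, 164.5 and 101 CPM against 205, 198 and 279 CPM, with a log2 fold change of 1.12 (adjusted p = 0.567 in edgeR). Sox9, a factor of stem cells and astrocytes, had 14.9, 15.4 and 14.6 CPM against 33.8, 19.8 and 20.3 CPM (log2 fold change 0.72, SE 0.22, adjusted p = 0.530 in edgeR), and its log2 fold change was 0.42 without replicate 1. These genes are made by reactive astrocytes as well, and the reactive astrocyte list moved with them: 15 of its 15 genes were higher, 9 of them at an unadjusted p under 0.05 (3.68% of all genes), with a median of 1.35 (0.85 without replicate 1). Its summed level (Gfap, Vim, Serpina3n and others) was 641, 2431 and 1741 CPM with Control-ASO and 2315, 3003 and 3231 CPM with Snhg11-ASO. Except in Snhg11-ASO replicate 1, most of this sum came from Gfap, whose groups overlapped. Gfap had 417, 1984 and 1398 CPM against 948, 2375 and 2486 CPM (log2 fold change 0.61, adjusted p = 0.810 in edgeR). Vim and Gfap belong to both lists, and the part of reactive astrocytes in these values was not tested.

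Among the genes of intermediate progenitors, 8 of the 10 tested were higher and 2 lower, with a median of 0.36 (0.30 without Snhg11-ASO replicate 1), and Neurog2 and Neurod4, like Eomes, did not pass the filter on low counts. Gadd45g, a stress and differentiation gene, was the only one at an unadjusted p under 0.05 in edgeR, against 3.68% of all genes on the higher side. It had 6.19, 7.40 and 8.22 CPM against 16.9, 10.1 and 10.4 CPM (log2 fold change 0.78, or 0.49 without replicate 1, adjusted p = 0.532 in edgeR). In the proliferation list 18 of 21 genes were higher and 3 lower, with a median of 0.18, which was 0.41, 0.07 and 0.02 without Snhg11-ASO replicates 1, 2 and 3 and 0.09 without Control-ASO replicate 3. Snhg11-ASO replicate 1 was the lowest of the 6 samples for 16 of the 21 genes, against 32.5% of all genes. Against 8.11% of all genes, 1 gene of the list reached an unadjusted p under 0.05 in edgeR. This was Pcna, the sliding clamp of DNA polymerase, with 18.6, 18.2 and 16.6 CPM against 26.6, 22.7 and 23.3 CPM (log2 fold change 0.44, SE 0.12, adjusted p = 0.492 in edgeR). None of the 78 genes tested in these lists passed the adjusted threshold in edgeR, and 3 did in DESeq2, where 1.29% of all genes did.

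**Figure D4:**
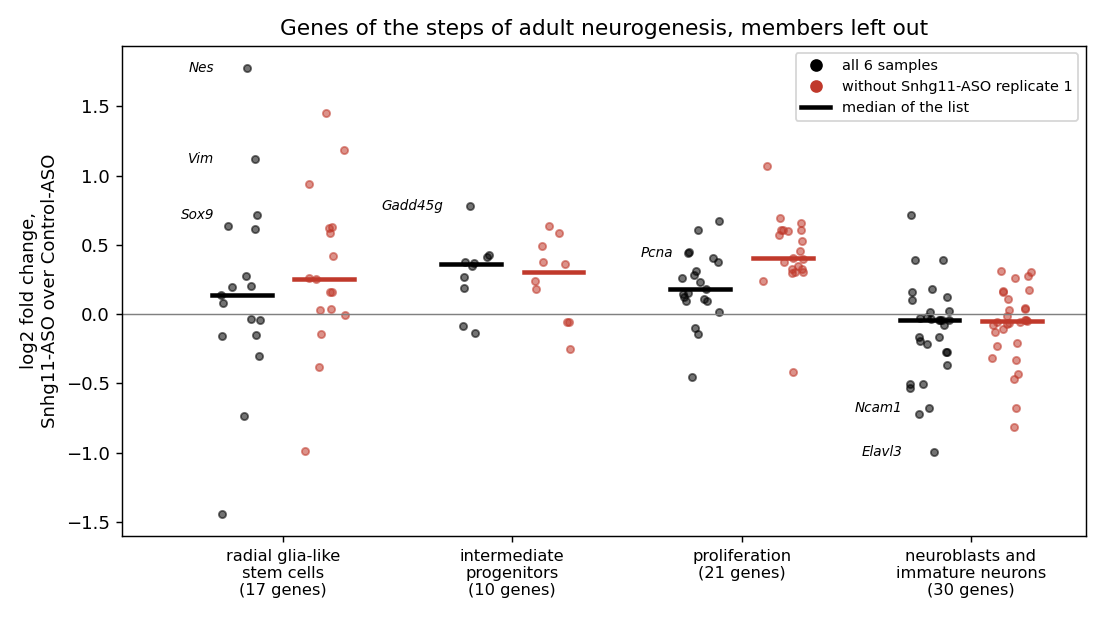
Log2 fold change (vertical axis, Snhg11-ASO over Control-ASO, edgeR) of each gene in the lists of radial glia-like stem cells, intermediate progenitors, proliferation, and neuroblasts and immature neurons, with all 6 samples (black) and without Snhg11-ASO replicate 1 (red). Horizontal bars are the list medians, 0.14, 0.36, 0.18 and -0.04 with all samples, and the named genes are those with an unadjusted p under 0.05 and no overlap between the groups.

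The relatives of the 10 genes showed how far a family moved together. Of 22 relatives tested, 13 were higher and 9 lower, with a median of 0.04. For 2 the unadjusted p was under 0.05 in edgeR (8.11% of all genes) and the groups did not overlap (15.4% of all genes). In 22 genes, 2 at such a p is close to the share of all genes. The β-tubulin Tubb6 had 2.07, 2.17 and 1.31 CPM with Control-ASO and 25.4, 5.03 and 4.70 CPM with Snhg11-ASO. It was thus higher in every Snhg11-ASO sample while Tubb3 was lower, and its log2 fold change of 2.66 (SE 0.72, adjusted p = 0.492 in edgeR and 0.00471 in DESeq2) was 1.40 without replicate 1. The other β-tubulins had log2 fold changes of -0.15 (Tubb2a), 0.13 (Tubb2b), 0.004 (Tubb4a), -0.09 (Tubb4b) and -0.20 (Tubb5). Tbr1, the T-box relative of Eomes in glutamatergic neurons, had 23.1, 23.7 and 34.2 CPM against 17.1, 19.2 and 16.4 CPM (log2 fold change -0.62, SE 0.18, adjusted p = 0.507 in edgeR). The doublecortin-like kinases Dclk1 and Dclk2 stood at -0.04 and 0.14, and the CRMP genes Crmp1, Dpysl2, Dpysl4 and Dpysl5 at 0.06, -0.12, -0.21 and 0.18. Ccnd1 was at 0.52 and Ccnd3 at 0.26, Neurod2 at 0.39 and Neurod6 at 0.03. Igfbp5 was at 0.11 and Igfbp7 at 0.40, and the Draxin receptor Dcc and its ligand Ntn1 were at -0.25 and 0.12.

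Markers of other cells that could carry the 10 genes were set beside them. Neuroblasts of the subventricular zone also make Dcx, Sox11 and Tubb3, and the list of their markers (Dlx2, Sp8, Sp9 and others) summed to 77.9, 59.7 and 93.2 CPM with Control-ASO and 60.2, 63.9 and 63.1 CPM with Snhg11-ASO. Most of these sums came from Meis2 and Tshz1, and 6 of the 9 markers were lower and 3 higher. Dlx2, Sp8 and Sp9 were the higher ones, with log2 fold changes of 0.34, 0.45 and 0.41, and Dlx2 was at 0.772 to 1.32 CPM. Oligodendrocyte precursors, which make Sox4, summed to 210, 261 and 224 CPM against 169, 226 and 239 CPM, and Snhg11-ASO replicate 1, highest in Sox4, was lowest in these. Among the Cajal-Retzius markers 2 of the 5 tested were lower and 3 higher. Most of their summed level came from Reln, at 162, 121 and 139 CPM against 90.5, 91.2 and 107.9 CPM (log2 fold change -0.54, adjusted p = 0.465 in edgeR), while Trp73 had a log2 fold change of 0.01. Ebf3 went the other way with no overlap between the groups. It had 1.12, 1.04 and 1.22 CPM against 1.285, 2.44 and 2.29 CPM (log2 fold change 0.83, adjusted p = 0.574 in edgeR). Mature granule cell markers (Prox1, C1ql2, C1ql3 and others) summed to 787, 715 and 698 CPM against 790, 827 and 707 CPM and overlapped. The part of any of these cells in the levels of the 10 genes was not tested. When the edgeR model held a term for the mean choroid plexus level, the log2 fold change was -0.46 for Dcx and -0.57 for Tubb3.

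The genes with the profile most like that of Dcx were searched among 13663 protein-coding genes, by the mean absolute difference of log2 CPM over the 6 samples after each gene was centred on its mean. Among the nearest were Slc35f1 (0.0441), Rbp4 (0.0516), Grb10 (0.0536) and Atp10a (0.0566). Of the other markers Tubb3 was nearest, at place 624 with 0.184, and Ccnd2, Neurod1 and Dpysl3 stood at places 2597, 4438 and 6137. Sox11, Sox4 and Igfbpl1 stood at places 12491, 12863 and 12899, close to the far end. Draxin and Eomes were not ranked, as their mean level was under 1 CPM.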

How the data were processed

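Ribosomal RNA-depleted, strand-specific libraries of dorsal hippocampal RNA were sequenced as 50-base read pairs. The authors aligned them to GRCm38 (mm10) with STAR 2.5.2a, per the submitters' processing notes, and deposited raw counts of read pairs per gene for each sample, neither normalized nor pooled. Rsubread is the counting tool in the paper's methods, whereas the deposited counts have the form STAR writes. Counts of the reverse strand were used, which held 96.2% to 96.8% of the stranded counts. Pairs on several places or genes are counted for none. Lines that name no gene held 43.5% to 51.4% of all pairs and were left out.

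Genes were named with GENCODE M21 (55141 of 55401 identifiers matched). A filter on low counts (filterByExpr, minimum count 10) left 19969 genes, and libraries were scaled by TMM factors (0.982 to 1.02). The groups were compared in edgeR 4.0.16 (R 4.3.3; quasi-likelihood test, Benjamini-Hochberg adjustment over all genes tested, threshold 0.05). The common biological coefficient of variation was 0.266. SE is the absolute log2 fold change over the root of the F statistic, and intervals use the t distribution with the same degrees of freedom. CPM profiles on the log2 scale used a prior count of 2. Exact permutation tests were two-sided over the 3 against 3 samples, with a smallest p of 0.1. The methods were tested on simulated counts, where edgeR missed part of the genes given a changed level. The mark for passing that test was set after this was seen.

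The study left out 1 Snhg11-ASO sample that is not named; here all were kept and each was left out in turn. Nothing in the labels says more of the samples than genotype, tissue, group and number. The methods give 3 mice per group, so p-values measure the spread between these samples. Replicate numbers were treated as pairing the samples because samples of equal number deviated together from the means of their groups (correlations 0.297, 0.179 and 0.103); this comes from the values, not from the labels, and Control-ASO replicate 2 correlated slightly better with Snhg11-ASO replicate 3 (0.188). The block was therefore an alternative. Others were DESeq2 1.42.0, other scalings, both strands, other filters, offsets for genomic span or GC content, and no mitochondrial genes. A term for choroid plexus genes was added after the results were seen. The markers, gene lists and rules were chosen with earlier results of these data known. Genes named are the 10 markers, all their relatives, genes of the stage lists with an unadjusted p under 0.05 and no overlap between groups, the first 3 of each cell type list, and the 5 nearest to Dcx, of which 1 is not reported here; other names were chosen after their values were seen. Gene lists are described by counts and medians, with no list test, and under every alternative over the genes tested with all 6 samples.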

Additional observations from a re-analysis of the deposited data

How the results depend on the processing

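Under 18 alternatives, 0 of the 10 genes passed an adjusted p of 0.05. The count decides little in edgeR, where the target Snhg11 did not pass either (adjusted p 0.12 to 0.95). DESeq2, in which Snhg11 passed, was run on all samples only and not with a sample left out. The genes Dcx, Tubb3, Sox4, Igfbpl1 and Dpysl3 kept their sign in all 18 alternatives. Reversals came only from leaving out a sample: without Snhg11-ASO replicate 1 the log2 fold change was -0.22 for Sox11, 0.14 for Neurod1 and 0.02 for Ccnd2, without Control-ASO replicate 1 it was -0.074 for Draxin and 0.12 for Ccnd2, and without Snhg11-ASO replicate 3 it was -0.02 for Draxin. Over single samples left out, the value ranged from -0.22 to 0.89 for Sox11, from -0.26 to 0.14 for Neurod1, from 0.31 to 1.03 for Igfbpl1, from -0.074 to 0.50 for Draxin and from -0.16 to 0.12 for Ccnd2. For Dcx it ranged from -0.68 to -0.36, the latter without Control-ASO replicate 3, and for Tubb3 from -0.62 to -0.33. For Sox4 it ranged from 0.24 to 1.27 and for Dpysl3 from 0.000562 to 0.19. Leaving out 1 sample at a time gave 0 to 3 of the 9 genes at an unadjusted p under 0.05, where 0 was without Control-ASO replicate 3 and 1 without Control-ASO replicate 1 (Tubb3), Control-ASO replicate 2 (Dcx) or Snhg11-ASO replicate 1 (Tubb3). It gave 0 to 2 genes of all tested at the adjusted threshold, 2 without Snhg11-ASO replicate 1, and a median of 0.22 to 0.33 for intermediate progenitors, the lowest without Snhg11-ASO replicate 3. DESeq2 called 258 genes of all tested and moved Snhg11 past the threshold (log2 fold change -2.12, adjusted p = 6.2e-05). With the replicate number as a block, which rests on the pairing of samples, no call changed; the log2 fold change was -2.10 for Snhg11, -0.51 for Dcx, -0.54 for Tubb3, 0.77 for Sox4 and 0.36 for Sox11, and the median of the radial glia-like list turned to -0.01. The causes of these moves were not tested. With 3 samples a group, the 95% intervals of Sox4, Sox11, Igfbpl1 and Draxin all held 0, and Eomes, which passed the filter in 7 alternatives, had log2 fold changes of 1.31 to 2.76 there that rested on the 53 counts of Snhg11-ASO replicate 2 (adjusted p 0.594 to 0.979, and 1 unadjusted p under 0.05, without Snhg11-ASO replicate 3).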
